A study of Mus musculus with 9 samples.

Results

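Livers in which hepatocytes had lost Tsc1 (Tsc1fl/fl;Alb-Cre, 3 libraries) were compared with livers heterozygous for p53 (p53+/-, 3 libraries). These 6 of the 9 libraries of the series were chosen by genotype, and the double mutant was not used here. All animals were 320 days old, and nothing in the labels says whether the libraries of a genotype came from separate mice. In the Tsc1fl/fl;Alb-Cre mouse, Cre recombinase under the albumin promoter removes the floxed Tsc1 segment in hepatocytes, while endothelial, stellate and blood cells of the liver keep the gene. In the p53+/- mouse 1 copy of Trp53 is missing in all cells. No wild-type liver is part of the comparison, so each difference is Tsc1-deleted over p53-heterozygous, and a gene that was higher in the first group and a gene that was lower in the second cannot be told apart. The series title names markers for liver cancers that have lost both genes as its aim.

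The protein encoded by Tsc1 forms a complex with TSC2 that switches off RHEB, the small GTPase that activates the growth kinase mTORC1. Without the complex mTORC1 stays active: it drives protein and lipid synthesis through 4E-BP and S6 kinase, and on the lysosome, with the Rag GTPases and folliculin, it controls TFEB and TFE3, the transcription factors of lysosome genes. p53 is a transcription factor that halts the cell cycle and starts apoptosis or repair after damage.

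Levels are given as nuclear TPM, the deposited FPKM rescaled so that nuclear protein-coding genes add up to 1000000 in each library. The rescaling was needed because mitochondrial transcripts took 20%, 24.1% and 9.6% of the estimated reads in the Tsc1-deleted libraries, against 68.0%, 55.9% and 25.5% in the p53-heterozygous libraries 1, 2 and 3. Nuclear protein-coding genes were left with about 10700000, 10200000 and 14200000 reads in the Tsc1-deleted libraries and about 1000000, 600000 and 7900000 in the p53-heterozygous ones. Those counts were estimated from the step that 1 read makes, and they set the precision: low genes are measured poorly in p53-heterozygous libraries 1 and 2. Hepatocyte markers such as albumin and transthyretin summed to 138600 to 197000 nuclear TPM in the Tsc1-deleted libraries. In the p53-heterozygous group they summed to 194100 and 214200 in libraries 1 and 2 but to 4220 in library 3. Library 3 of the p53-heterozygous group held 705 nuclear TPM of Alb, 988 of the bile duct keratin Krt19, 1251 of the collagen gene Col1a1 and 89.8 of the proliferation marker Mki67. Macrophage markers summed to 9780 and stellate cell and fibroblast markers to 8417 nuclear TPM in that library, against at most 1549 and 1244 in the other 5, so its label as liver tissue goes with few hepatocyte transcripts. Red cell markers summed to 549 to 1674 nuclear TPM in the Tsc1-deleted libraries, against 36730, 77430 and 408 in the p53-heterozygous libraries 1, 2 and 3. Xist, the RNA that silences an X chromosome in females, stood at 84.8, 0.031 and 0.011 nuclear TPM in the Tsc1-deleted and at 0.81, 271.5 and 0.86 nuclear TPM in the p53-heterozygous libraries, so both groups held libraries with high and with low Xist. In bulk liver, fewer cells of a type and less RNA per cell cannot be told apart.

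**Figure D1:**
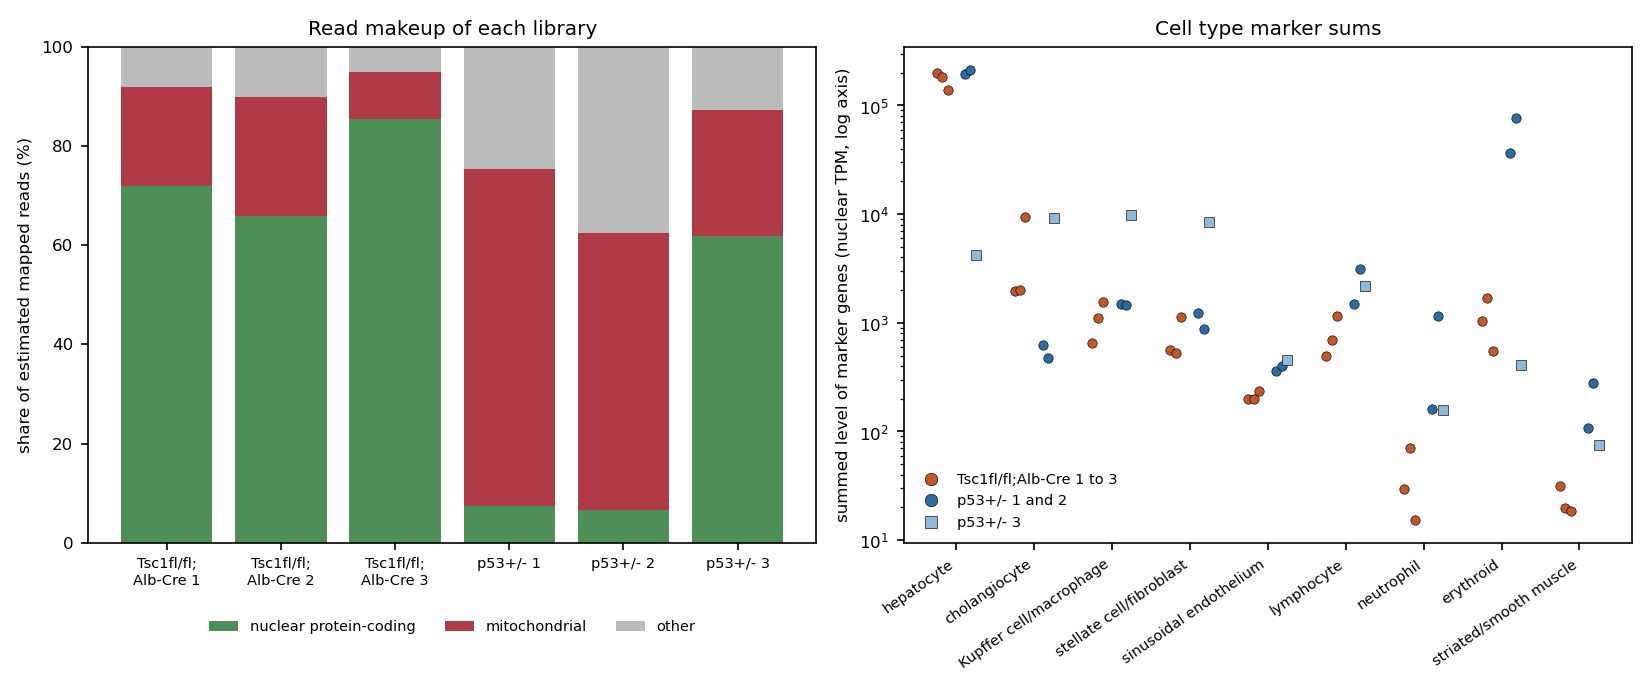
Left, share of estimated mapped reads (%) from nuclear protein-coding, mitochondrial and other genes in each library; right, summed nuclear TPM of cell type markers on a log axis, 1 point per library. Nuclear protein-coding genes hold 7.4% and 6.6% of the reads in p53+/- libraries 1 and 2, and p53+/- library 3 is lowest in hepatocyte and highest in macrophage and stellate cell markers.

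The test was therefore run with all 6 libraries and again without p53-heterozygous library 3, a 5-library comparison of the 3 Tsc1-deleted livers with the 2 p53-heterozygous livers that were rich in hepatocyte transcripts. Of the members of the gene lists described below, Bex2 was the only one that passed with all 6 libraries. The calls given for lists are therefore those without library 3, a choice made with the 6-library result known. Counts without overlap are over all 6 unless stated. Log2 changes are on the log2(nuclear TPM + 1) scale, which understates the change of low genes. Over all 14884 genes tested the median log2 change was -0.18 with all 6 libraries and 0.09 without library 3. For the values as deposited it was 1.25 over the 10048 genes that reached the filter there; nuclear protein-coding genes hold 46.0%, 40.1% and 62.5% of the deposited FPKM in the Tsc1-deleted and 2.61%, 2.37% and 31.8% in the p53-heterozygous libraries.

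Tsc1 stood at 2.71, 3.41 and 3.22 nuclear TPM in the Tsc1-deleted livers and at 5.34, 9.93 and 4.68 in the p53-heterozygous livers. All Tsc1-deleted libraries were below all p53-heterozygous ones, with a log2 change of -0.84 (SE 0.48) that did not pass (limma adjusted p = 0.512, and 0.214 without library 3). Trp53 stood at 24.9, 31.7 and 55.3 nuclear TPM in the Tsc1-deleted and at 19.3, 19.4 and 72.8 in the p53-heterozygous livers, so the groups overlapped (limma adjusted p = 0.915). A value for the whole Tsc1 gene does not separate the part that Cre removes, and endothelial, stellate and blood cells keep it, so these levels do not check the labels.

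With all 6 libraries, 6 genes were higher (0.0403% of those tested) and 2 were lower (0.0134%) in Tsc1-deleted livers, and 1982 genes (13.3%) had an unadjusted p under 0.05 (limma). Defb1 (ENSMUSG00000044748, chromosome 8), which encodes a secreted antimicrobial beta-defensin, stood at 116, 243 and 305 nuclear TPM in Tsc1-deleted livers and was listed at 0 in all 3 p53-heterozygous livers (limma adjusted p = 0.00186). By its exon length 1 read of Defb1 is worth about 2.96 and 4.21 nuclear TPM in p53-heterozygous libraries 1 and 2, so a level like that of the Tsc1-deleted livers lay well above what those libraries could detect. Wfdc12, a secreted protein of the antibacterial WAP family, stood at 49.6, 69.2 and 50.5 nuclear TPM in Tsc1-deleted livers, against 0, 0 and 0.69 (limma adjusted p = 0.00936). Clec2h, a C-type lectin-like surface protein, stood at 61.0, 44.4 and 25.4 nuclear TPM against 0, 0 and 0.44 (limma adjusted p = 0.0249). Bex2, a small X-linked adaptor protein that sits on the list of fetal and liver tumour markers, stood at 109, 24.7 and 109 nuclear TPM and was listed at 0 in every p53-heterozygous library (limma adjusted p = 0.0328). For each of these genes every Tsc1-deleted library was above every p53-heterozygous one. A value of exactly 0 can also be a failed estimate: Adnp, a gene used by nearly all cells, was itself listed at 0 in 5 of the 6 libraries, so no fold is given against such zeros.

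The other 4 calls lie in gene models that overlap a neighbour or have near copies. Whether reads were shared between the models was not tested. Mup-ps19, a pseudogene among the major urinary protein genes, stood at 2675, 3385 and 3238 nuclear TPM in Tsc1-deleted livers and was listed at 0 in all p53-heterozygous livers (limma adjusted p = 5.08e-05). The 49 Mup genes and pseudogenes summed to 14110, 19940 and 13630 nuclear TPM in Tsc1-deleted livers and to 26190, 1762 and 296 in p53-heterozygous livers, and those sums overlapped. Gm44805, a model that overlaps the apolipoprotein genes Apoc2 and Apoc4 on the same strand, stood at 638, 1002 and 791 nuclear TPM against 0, 0 and 0.31 (limma adjusted p = 0.00014). Its sum with Apoc2 and Apoc4 was 1858, 2889 and 1470 nuclear TPM in Tsc1-deleted and 3645, 4920 and 177 in p53-heterozygous livers, again overlapping, so the reads may have been split differently between the models. Eno1b, a near copy of the glycolytic enolase gene Eno1, was listed at 0 in all Tsc1-deleted livers and stood at 52.8, 55.2 and 256 nuclear TPM in p53-heterozygous livers (limma adjusted p = 0.03), while the sum of both copies overlapped. Gm12940, which overlaps the splicing factor gene Sfpq, stood at 8.36, 9.55 and 4.84 nuclear TPM against 214, 252 and 129 (limma adjusted p = 0.03). The sum with Sfpq kept the groups apart, at 41.3, 39.8 and 71.4 nuclear TPM in Tsc1-deleted and 257, 319 and 347 in p53-heterozygous livers.

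**Figure D2:**
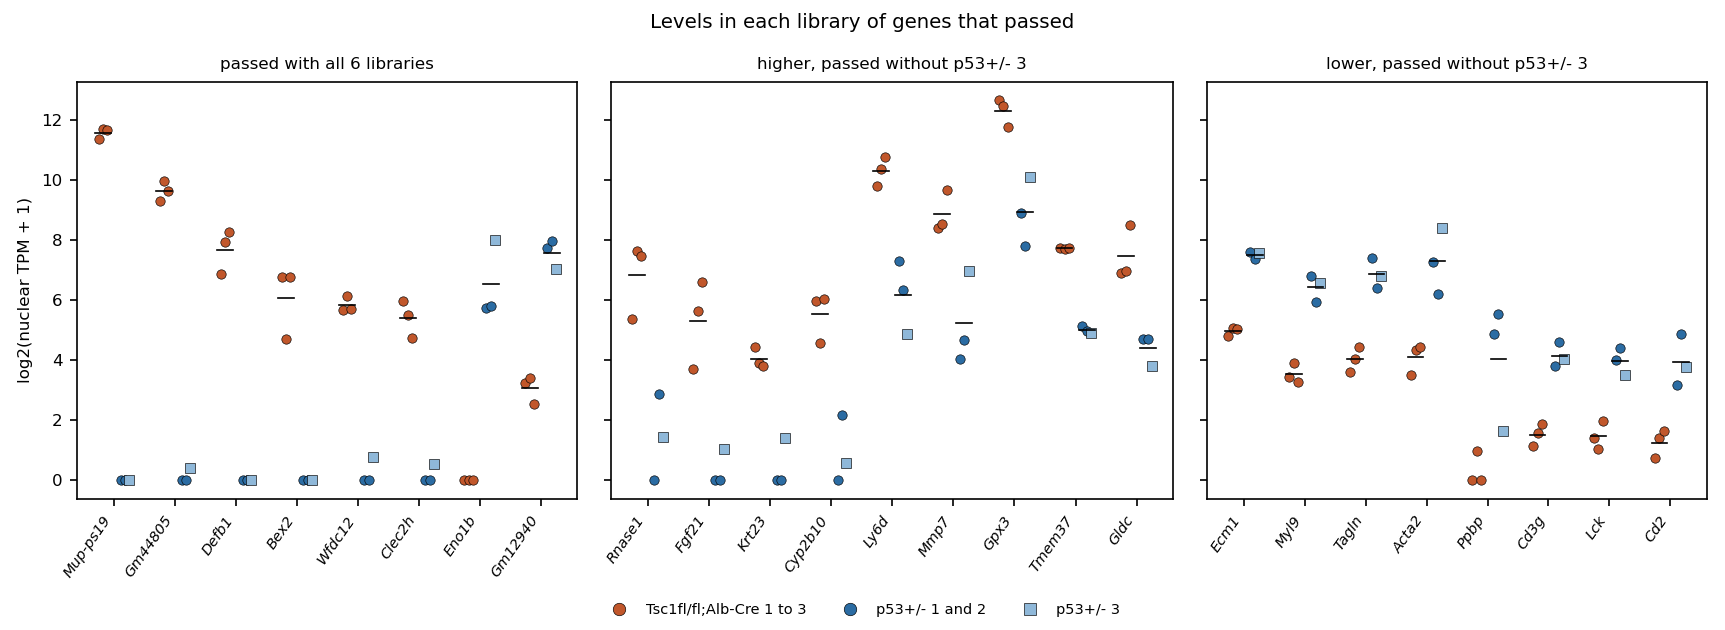
Level of each gene in each library as log2(nuclear TPM + 1), the 3 Tsc1fl/fl;Alb-Cre livers left of the 3 p53+/- livers; lines are group means, drawn where no library is at 0, the left panel shows genes that passed with all 6 libraries and the others genes that passed without p53+/- library 3 (square). In the left panel Defb1, Bex2, Wfdc12 and Clec2h stand between 24.7 and 305 nuclear TPM in Tsc1-deleted livers and at or near 0 in p53-heterozygous livers.

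Without p53-heterozygous library 3, 387 genes were higher (2.6%) and 390 lower (2.62%) in Tsc1-deleted livers, 3742 (25.1%) had an unadjusted p under 0.05 (limma), and 220 of the first (1.48%) and 276 of the second (1.85%) also did not overlap over all 6 libraries. These calls rest on few libraries: with Tsc1-deleted library 3 also left out, 24 genes were higher and 59 lower. Of the 387, 162 were listed at 0 in both remaining p53-heterozygous libraries, and in 50 of those every Tsc1-deleted library was above the value of 3 reads there. Genes outside the gene lists that show the pattern plainly, named after their values were seen, include Tmem37, which encodes a membrane protein related to calcium channel subunits. It stood at 213, 206 and 215 nuclear TPM in Tsc1-deleted and at 34.2, 30.5 and 28.7 in p53-heterozygous livers, a log2 change of 2.67 (SE 0.28) without library 3 (limma adjusted p = 0.00438, and 0.115 with all 6). Mmp7, the matrix protease matrilysin, stood at 336, 370 and 822 nuclear TPM against 15.2, 24.4 and 125 (limma adjusted p = 0.00403 without library 3, 0.176 with all 6). Gpx3, the secreted glutathione peroxidase, stood at 6480, 5707 and 3505 nuclear TPM against 484, 223 and 1101 (limma adjusted p = 0.00558 without library 3, 0.189 with all 6). Gldc, the glycine cleavage decarboxylase, stood at 120, 124 and 362 nuclear TPM against 25.1, 25.0 and 13 (limma adjusted p = 0.0303 without library 3, 0.133 with all 6). None of these ranges overlapped between the genotypes. By the rule for named genes, the largest rises of protein-coding genes that had no overlap also included Rnase1, a secreted ribonuclease, at 40.2, 198 and 176 nuclear TPM against 0, 6.33 and 1.67 (limma adjusted p = 0.0295 without library 3, 0.115 with all 6). Hist2h2aa1, 1 of several nearly identical histone H2A genes, stood at 118, 251 and 151 nuclear TPM against 0, 0 and 73.7. The pseudogene H2-T-ps of the MHC class I region stood at 35.5, 24.9 and 68.6 nuclear TPM against 0, 0 and 3.28. Reads of both could be split with near copies.

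In the nutrient-sensing pathway the plainest difference was Rragd (ENSMUSG00000028278, chromosome 4), which encodes the Rag GTPase D, a lysosomal switch that brings mTORC1 to the lysosome and is itself a target of TFEB and TFE3. It stood at 41.0, 46.4 and 54.0 nuclear TPM in Tsc1-deleted and at 5.93, 2.95 and 4.41 in p53-heterozygous livers, so the lowest Tsc1-deleted library was several times the highest p53-heterozygous one. The ratio of the means was 10.6 and the log2 change 3.18 (SE 0.43), with a limma adjusted p of 0.0987 over all 6 libraries and 0.00837 without library 3. The limma adjusted p of Rragd ran from 0.00303 to 0.493 over the alternatives to the 6-library test. That range, like the ranges over settings given further on, leaves out the variants of the 5-library comparison. Rragc, the partner of Rragd, stood at 53.1, 52.8 and 85.0 nuclear TPM against 28.0, 17.0 and 59.2 (limma adjusted p = 0.492, and 0.0692 without library 3). Rraga stood at 35.9, 31.1 and 81.8 nuclear TPM against 42.5, 32.8 and 64.8, with overlap. Of the 26 tested genes of Rag GTPases, folliculin and MiT/TFE factors (1 more, Rragb, was too low), Rragd was the only one that passed in the 5-library comparison, and 1 was above and 7 below without overlap over all 6. Over all genes 2.6% rose and 2.62% fell without library 3, and 7.71% were above and 14.6% below without overlap. Those below included Fnip1, Tfe3, Mitf and Slc38a9. Fnip1, the folliculin partner, stood at 12.5, 9.16 and 12.6 nuclear TPM against 24.9, 32.3 and 17.7 (limma adjusted p = 0.358). Tfe3 stood at 8.12, 9.72 and 11.6 nuclear TPM against 12, 15.5 and 32.3 (limma adjusted p = 0.518). Flcn, the folliculin gene, and Tfeb overlapped between the groups, as did Gpnmb, another target of these factors, at 21.7, 7.24 and 86.2 nuclear TPM against 28.5, 12.6 and 6.32.

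Among the 23 genes of the TSC complex and mTORC1, none passed with all 6 libraries, and 1 passed in each direction without library 3, close to the 2.6% and 2.62% of all genes. Eif4ebp1, the translation repressor 4E-BP1 that mTORC1 inactivates, stood at 83.0, 87.8 and 123 nuclear TPM in Tsc1-deleted and at 30.9, 35.9 and 132 in p53-heterozygous livers (limma adjusted p = 0.0429 without library 3, 0.613 with all 6). Rps6kb2, an S6 kinase, stood at 23.8, 28.0 and 23.6 nuclear TPM against 94.2, 67.6 and 64.9, with no overlap and a log2 change of -1.63 (SE 0.33) without library 3 (limma adjusted p = 0.0347, and 0.204 with all 6). For the values as deposited its log2 change was 0.63, below the median of 1.25 of all genes on that scale. Tsc2 stood at 16.8, 18.5 and 28.2 nuclear TPM against 25.4, 14.7 and 26. Mtor stood at 11.9, 9.40 and 18.95 nuclear TPM against 8.91, 12.9 and 10.2, and both genes overlapped. Sesn3, a sestrin that restrains mTORC1, stood at 10.5, 9.24 and 35.5 nuclear TPM against 2.73, 3.05 and 5.42, without overlap (limma adjusted p = 0.271, and 0.0888 without library 3).

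Several lysosome genes rose in Tsc1-deleted livers without library 3. Of the 40 tested, 6 passed as higher and 0 as lower without library 3 (2.6% and 2.62% of all genes), 7 were above and 1, the autophagy gene Becn1, below without overlap over all 6 (7.71% and 14.6% of all genes). The median log2 change was 0.84 without library 3 and 0.49 with it. Neu1, the lysosomal sialidase, stood at 105, 118 and 138 nuclear TPM in Tsc1-deleted and at 30.9, 34.3 and 28.6 in p53-heterozygous livers (log2 change 1.85, SE 0.30, limma adjusted p = 0.0217 without library 3, 0.162 with all 6). Gabarapl1, an ATG8-family protein of the autophagosome membrane, stood at 707, 612 and 1014 nuclear TPM against 166, 209 and 106 (limma adjusted p = 0.0228 without library 3, 0.189 with all 6). For both genes the genotypes were far apart, whichever p53-heterozygous library was taken. Lamp1, the main glycoprotein of the lysosome membrane, stood at 1147, 735 and 1514 nuclear TPM against 386, 151 and 529 (limma adjusted p = 0.0494 without library 3, 0.336 with all 6, range over settings 0.0316 to 0.836). The protease gene Ctsz stood at 2007, 1999 and 1911 nuclear TPM against 461, 428 and 1530 (limma adjusted p = 0.0119 without library 3, 0.423 with all 6). Ctsb and Cd63 also passed without library 3, but in library 3, which was rich in macrophage transcripts, they stood at 825 and 568 nuclear TPM, above all Tsc1-deleted livers. Macrophage markers, whose cells are rich in lysosomes, summed to 654, 1112 and 1549 nuclear TPM in the Tsc1-deleted and to 1501, 1448 and 9780 in the p53-heterozygous livers. The part of macrophages in the lysosome result was not tested. Sqstm1, the autophagy receptor p62, stood at 544, 727 and 1373 nuclear TPM against 236, 251 and 324 (limma adjusted p = 0.0596 without library 3).

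TFEB and TFE3 bind an E-box, CACGTG, and its longer form in the CLEAR element, TCACGTGA. The promoter windows of RefSeq (GRCm38.p6), from 250 bases before to 50 after each gene start, were searched for both on both strands, and the longer motif contains the shorter. CACGTG was found for 9 of the 30 lysosome genes with a window (30.0%) and for 8.09% of all genes with one, and TCACGTGA for 6 of the 30 (20%) and 1.12% of all genes. In the Rag, folliculin and MiT/TFE list CACGTG was found for 5 of 23 genes, among them Rragc and Fnip1, and not for Rragd. TCACGTGA was found for 0 of the 23. The stretch upstream of Lamp1 (chr8:13159060-13159160, plus strand) is shown because it holds 4 copies of CACGTG, in capitals, at 61, 45, 28 and 15 bases before the start.
Lamp1 promoter: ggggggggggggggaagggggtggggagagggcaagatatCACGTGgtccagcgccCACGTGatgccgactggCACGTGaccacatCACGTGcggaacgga
A match describes the letters of this window and says nothing of binding in these livers.

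Genes of the antioxidant response had the largest share of members above all p53-heterozygous livers among the pathway lists. NRF2 is a transcription factor that is freed from KEAP1 under oxidative stress, or when p62 accumulates and traps KEAP1, and switches on glutathione and detoxification enzymes. Of its 45 tested targets, 23 (51.1%) were above and 0 below without overlap over all 6 libraries, against 7.71% and 14.6% of all genes. The list's median log2 change was 1.47 with all 6 libraries and 1.18 without library 3, and its summed level was 42070, 52720 and 56920 nuclear TPM in Tsc1-deleted and 23450, 21030 and 20390 in p53-heterozygous livers. None passed with all 6 libraries, and 5 rose and 0 fell without library 3 (2.6% and 2.62% of all genes). Gsta2 stood at 503, 679 and 1228 nuclear TPM in Tsc1-deleted and at 77.8, 72.5 and 8.81 in p53-heterozygous livers, and Gstm4 at 165, 202 and 234 against 42.4, 28.0 and 13.4; both encode glutathione transferases. Their log2 changes without library 3 were 3.30 (SE 0.41, limma adjusted p = 0.00851) and 2.49 (SE 0.33, limma adjusted p = 0.0108), and with all 6 libraries the adjusted p was 0.156 and 0.127. Gsta4 stood at 282, 442 and 305 nuclear TPM against 70.5, 114 and 49.1 (limma adjusted p = 0.0303 without library 3, 0.189 with all 6). The Gsta genes are close copies, but the sum over 4 of them was also apart, at 1973, 3015 and 4232 against 729, 730 and 82.3 nuclear TPM. Ephx1, the microsomal epoxide hydrolase, stood at 1288, 1333 and 1443 nuclear TPM against 305, 136 and 85.7 (limma adjusted p = 0.0151 without library 3, 0.156 with all 6); its model overlaps Gm36961. Gpx4, which removes lipid peroxides and guards against ferroptosis, stood at 1287, 1738 and 1619 nuclear TPM against 417, 358 and 556 (limma adjusted p = 0.0188 without library 3, 0.269 with all 6).

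Other NRF2 targets were apart between the genotypes without passing. Nqo1, a quinone reductase often used as a readout of NRF2, stood at 56.3, 70.7 and 233 nuclear TPM in Tsc1-deleted and at 30.1, 43.2 and 3.54 in p53-heterozygous livers (limma adjusted p = 0.199 without library 3). Gclc, the catalytic subunit of the enzyme that limits glutathione synthesis, stood at 188, 413 and 858 nuclear TPM against 175, 183 and 81.2. Its partner subunit Gclm stood at 77.4, 52.5 and 60.7 nuclear TPM against 13.1, 32.9 and 24.6. Slc7a11, the cystine importer, spread widely within the Tsc1-deleted group, at 1.91, 11.3 and 42.7 nuclear TPM, against 1.80, 0.79 and 0.57. The ferritin subunit Fth1 stood at 16160, 17250 and 15200 nuclear TPM against 6216, 5035 and 9945 (limma adjusted p = 0.052 without library 3). Abcc4, an exporter of bile acids and nucleotides, stood at 20.9, 26.7 and 72.8 nuclear TPM against 7.33, 4.14 and 21, so its lowest Tsc1-deleted library fell just under p53-heterozygous library 3 (limma adjusted p = 0.0555 without library 3, 0.316 with all 6). NRF2 binds an element with the core TGACNNNGC. Searched as for the E-box, that core was found for 13 of 40 targets with a window (32.5%) and for 13.99% of all genes. Gsta2, Gstm4, Gsta4, Ephx1 and Gpx4, which passed without library 3, were not among those 13.
Prdx1 and Ugdh, a peroxiredoxin and the enzyme that makes UDP-glucuronic acid, are shown as members with the core that stood above every p53-heterozygous library; capitals mark the core on either strand.
Prdx1 promoter (chr4:116685426-116685514, plus strand): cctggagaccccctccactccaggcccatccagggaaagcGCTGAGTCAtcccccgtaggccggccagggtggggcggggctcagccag
Ugdh promoter (chr5:65435888-65436014, minus strand): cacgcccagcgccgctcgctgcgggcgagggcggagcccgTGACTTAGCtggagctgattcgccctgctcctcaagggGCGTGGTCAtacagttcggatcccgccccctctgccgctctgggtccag
Prdx1 stood at 514, 305 and 881 nuclear TPM in Tsc1-deleted and at 239, 177 and 287 in p53-heterozygous livers (limma adjusted p = 0.131 without library 3). Ugdh stood at 143, 181 and 263 nuclear TPM against 78.8, 77.6 and 60.0 (limma adjusted p = 0.0741 without library 3).

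**Figure D3:**
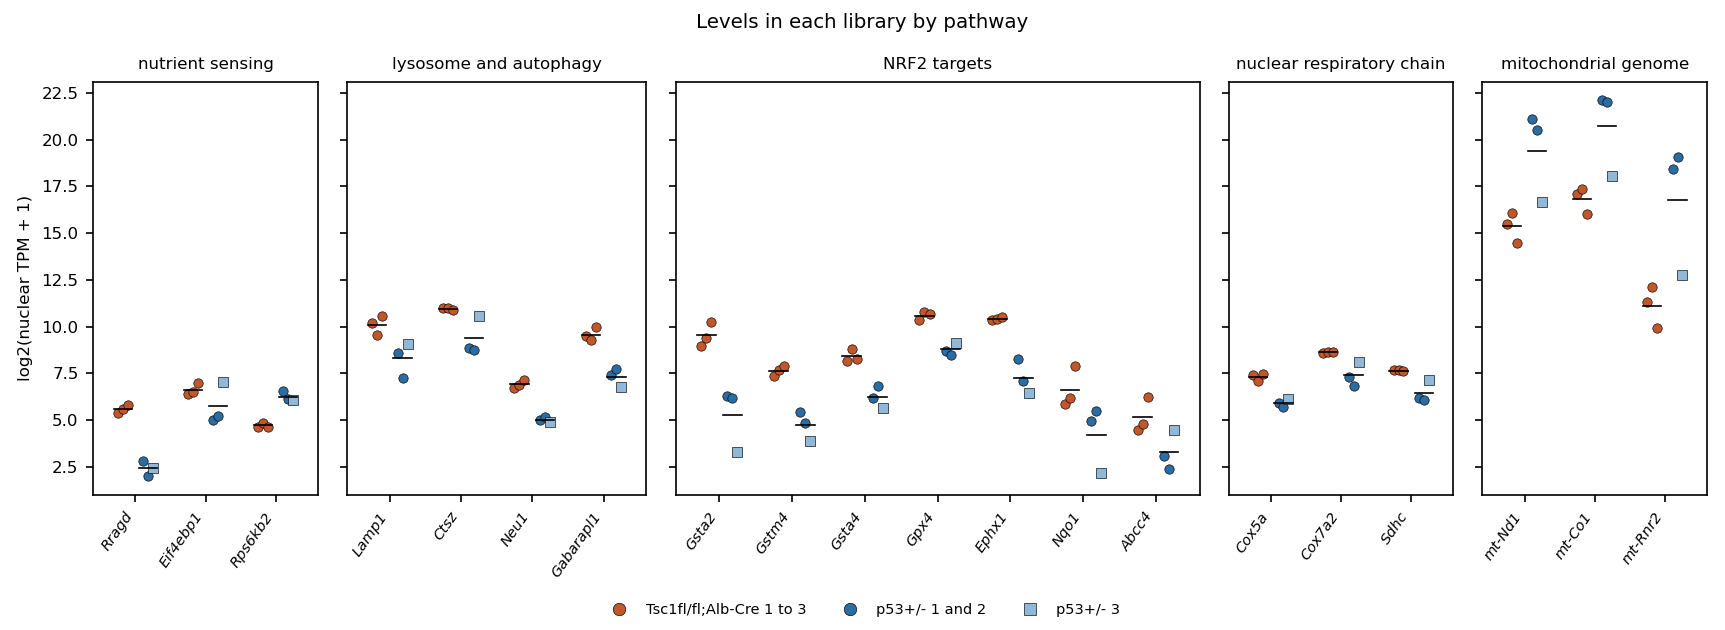
Level of members of 5 gene groups in each library as log2(nuclear TPM + 1), Tsc1fl/fl;Alb-Cre livers left of p53+/- livers; lines are group means. Rragd, Neu1, Gabarapl1, the glutathione transferases and Cox5a are apart in all 6 libraries, while Eif4ebp1 is high in p53+/- library 3. The mitochondrial genes, whose share of reads led to the scale, passed as lower in the Tsc1-deleted livers without that library.

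Fgf21, the fasting and stress hormone that hepatocytes secrete under amino acid stress and PPAR-alpha, stood at 12, 48.5 and 96.6 nuclear TPM in Tsc1-deleted livers and at 0, 0 and 1.02 in p53-heterozygous livers (limma adjusted p = 0.0186 without library 3, 0.115 with all 6, range over settings 0.0159 to 0.461). It was present in all Tsc1-deleted livers at levels spread over a wide range. Of 30 tested genes of the amino acid stress programme of the transcription factor ATF4, Fgf21 and Eif4ebp1 rose without library 3 (2.6% of all genes). None fell (2.62% of all genes), and the list's median log2 change was 0.78 (0.30 with all 6). Over all 6 libraries, 4 (13.3%) were above and 2 (6.67%) below without overlap (7.71% and 14.6% of all genes). Trib3, a pseudokinase of that programme, stood at 31.3, 47.9 and 101 nuclear TPM against 13.2, 20.9 and 10.3 (limma adjusted p = 0.108 without library 3). The stress hormone Gdf15 stood at 24.1, 24.9 and 22.3 nuclear TPM against 14.2, 13.5 and 6.62 (limma adjusted p = 0.222 without library 3). Both were without overlap and did not pass. Asns, the asparagine synthetase that ATF4 controls, stood at 4.12, 15 and 90.7 against 9.84, 4.14 and 30.8 nuclear TPM, so the members did not move as 1 block. Derl1, an ER membrane protein that passes misfolded proteins to the proteasome, was the only gene of 24 of the unfolded protein response that rose without library 3 (2.6% of all genes), and none fell. It stood at 120, 122 and 133 nuclear TPM against 46.3, 22.7 and 76.3 (limma adjusted p = 0.0318 without library 3, 0.297 with all 6).

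Markers of fetal liver and liver tumours were mixed. Of 31 tested members, 5 rose and 2 fell without library 3, 1 (Bex2) rose with all 6 libraries, and 6 were above and 0 below without overlap. Over all genes 2.6% rose and 2.62% fell without library 3, and 7.71% were above and 14.6% below. Ly6d, a GPI-anchored surface protein of progenitor-like cells, stood at 901, 1317 and 1746 nuclear TPM in Tsc1-deleted and at 158, 80.5 and 27.9 in p53-heterozygous livers (log2 change 3.49, SE 0.42, limma adjusted p = 0.00762 without library 3, 0.124 with all 6). Krt23, a keratin induced in damaged liver, stood at 20.8, 13.8 and 13 nuclear TPM against 0, 0 and 1.61 (limma adjusted p = 0.00498 without library 3, 0.115 with all 6). Golm1, the Golgi protein GP73, and Scd2, a fatty acid desaturase of immature liver, passed without library 3 but overlapped over all 6, since that library held 34.7 and 154 nuclear TPM. Afp, the fetal serum protein, stood at 6.43, 8.30 and 35.7 nuclear TPM against 10.9, 7.73 and 2.75, with overlap. H19, an imprinted fetal RNA, stood at 376, 54.5 and 538 nuclear TPM against 29.3, 78.9 and 5.69, with overlap (limma adjusted p = 0.298). The 2 that fell were Meg3, another imprinted RNA, at 1.43, 2.68 and 1.25 nuclear TPM against 19.9, 22.3 and 1.27, and Akr1c18, a steroid dehydrogenase, at 1.87, 0.19 and 0.74 against 82.6, 231 and 1.31. In both the difference lay in p53-heterozygous libraries 1 and 2 alone. Bile duct markers moved with this list: they summed to 1981, 2025 and 9389 nuclear TPM in Tsc1-deleted and 629, 474 and 9165 in p53-heterozygous livers, and Krt7, Ggt1 and Cldn7 passed as higher without library 3. The part of bile duct cells in the marker result was not tested.

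Of 34 tested p53 target genes, 2 rose and 0 fell without library 3, against 2.6% and 2.62% of all genes, and 4 (11.8%) were above and 3 (8.82%) below without overlap over all 6, against 7.71% and 14.6% of all genes. Cdkn1a, the cell cycle inhibitor p21, stood at 30.5, 49.8 and 109 nuclear TPM in Tsc1-deleted livers, against 9.62 and 7.63 in p53-heterozygous libraries 1 and 2 and 38.4 in library 3 (limma adjusted p = 0.0407 without library 3, 0.328 with all 6). Perp, a junction protein of p53-driven apoptosis, was more even, at 154, 146 and 146 nuclear TPM against 56.1, 59.2 and 73.2 (limma adjusted p = 0.0374 without library 3, 0.282 with all 6). Mdm2, the ubiquitin ligase that p53 induces and that degrades p53, lay on the other side, at 4.03, 7.24 and 17.4 nuclear TPM against 24.3, 26.4 and 33.1, without overlap and without passing (limma adjusted p = 0.148 without library 3). Without library 3, 29 of the 34 estimates were positive with a median log2 change of 0.74, against 0.09 for all genes, and with all 6 libraries 21 were positive with a median of 0.23. Of 29 tested cell cycle genes none passed with or without library 3 (limma), and 0 were above and 2, the cyclins Ccnd1 and Ccnd2, below without overlap (7.71% and 14.6% of all genes). All 30 on the list summed to 238, 177 and 473 nuclear TPM against 226, 216 and 2332, so library 3 weighs on those counts. Without it 7 were above and 2 below without overlap, against 3544 and 2927 of all 14884 genes. The median log2 change was 0.59 with 21 positive estimates, and -0.72 with 5 positive over all 6.

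Nuclear and mitochondrial genes of the respiratory chain are given apart. Of the 35 tested nuclear genes for its subunits, 16 (45.7%) were above and 0 below without overlap over all 6 (7.71% and 14.6% of all genes), and 3 rose without library 3 (2.6% of all genes). The median log2 change was 0.88 without library 3 and 0.72 with it. Cox5a, a subunit of complex IV, stood at 168, 135 and 174 nuclear TPM in Tsc1-deleted and at 58.5, 50.8 and 69.1 in p53-heterozygous livers (limma adjusted p = 0.0323 without library 3, 0.247 with all 6). Cox7a2, of the same complex, stood at 386, 394 and 394 nuclear TPM against 156, 110 and 275 (limma adjusted p = 0.0308 without library 3). Sdhc, of complex II, stood at 203, 201 and 192 nuclear TPM against 71.4, 65.3 and 141 (limma adjusted p = 0.029 without library 3). The summed level of the list was 12760, 13010 and 11440 against 6286, 7761 and 11380 nuclear TPM, so library 3 came close to the lowest Tsc1-deleted liver. All 37 mitochondrially encoded genes tested passed as lower in Tsc1-deleted livers without library 3, and 26 (70.3%) were below without overlap over all 6 (2.62% and 14.6% of all genes). Mitochondrial transcripts took 68.0% and 55.9% of the estimated reads in p53-heterozygous libraries 1 and 2, and the scale was chosen for that reason. These counts therefore restate that share and are no separate result. The 24 mitochondrial rRNA and tRNA genes overlapped in sum, at 25760, 40010 and 13540 against 1418000, 1985000 and 39890. The 13 mitochondrial protein genes summed to 686800, 834900 and 312900 in Tsc1-deleted and to 22700000, 18480000 and 1139000 in p53-heterozygous livers, on the nuclear TPM scale, in which they are not part of the total. For mt-Co1, the catalytic subunit of complex IV, the log2 change without library 3 was -5.23 with an SE of 0.58 (limma adjusted p = 0.00499, and 0.389 with all 6), and after quantile normalization of all 6 libraries it was 0.19. Since the scale divides by nuclear transcripts, more mitochondrial and less nuclear RNA cannot be told apart.

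Other noncoding RNAs are given by class. AY036118, a long RNA within the ribosomal RNA repeats, stood at 8317, 13440 and 3713 nuclear TPM in Tsc1-deleted livers and at 539500, 4683000 and 15790 in p53-heterozygous livers (limma adjusted p = 0.00914 without library 3, 0.312 with all 6). Among 108 tested small nuclear and nucleolar RNAs, 21 fell and 4 rose without library 3 (2.62% and 2.6% of all genes). Of the 108, 31 (28.7%) were below without overlap, against 14.6% of all genes. The 3 p53-heterozygous libraries alone can bring a gene past the filter, and 1 read of a short gene weighs most in libraries 1 and 2. Counts for these short RNAs may therefore lean toward lower and are not read as a result about the class. Of 558 long noncoding RNAs, 27 rose and 36 fell without library 3 (2.6% and 2.62% of all genes). Of these 558, 89 (15.9%) were below without overlap, close to the 14.6% of all genes, and the median log2 change was -0.04 without library 3. Snora68, a guide RNA for ribosomal RNA modification, stood at 0.97, 6.08 and 2.54 nuclear TPM against 128, 136 and 65.0 (limma adjusted p = 0.07 with all 6, 0.00472 without library 3), although 1 read of so short a gene is worth about 19.7 and 28 nuclear TPM in p53-heterozygous libraries 1 and 2. 4 genes of splicing proteins were picked after their values were seen and do not stand for splicing genes as a group. The SR protein kinase Clk4 stood at 14.8, 13 and 13.9 nuclear TPM against 53.7, 48.5 and 35.4 (limma adjusted p = 0.029 without library 3). Rbm39 stood at 22.7, 21.7 and 28.4 nuclear TPM against 84.4, 73.3 and 90.0 (limma adjusted p = 0.0315 without library 3). Pnn and Srsf11 passed in the same way. For the values as deposited these 4 genes had positive log2 changes, which lay below the median of 1.25 of all genes on that scale.

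**Figure D4:**
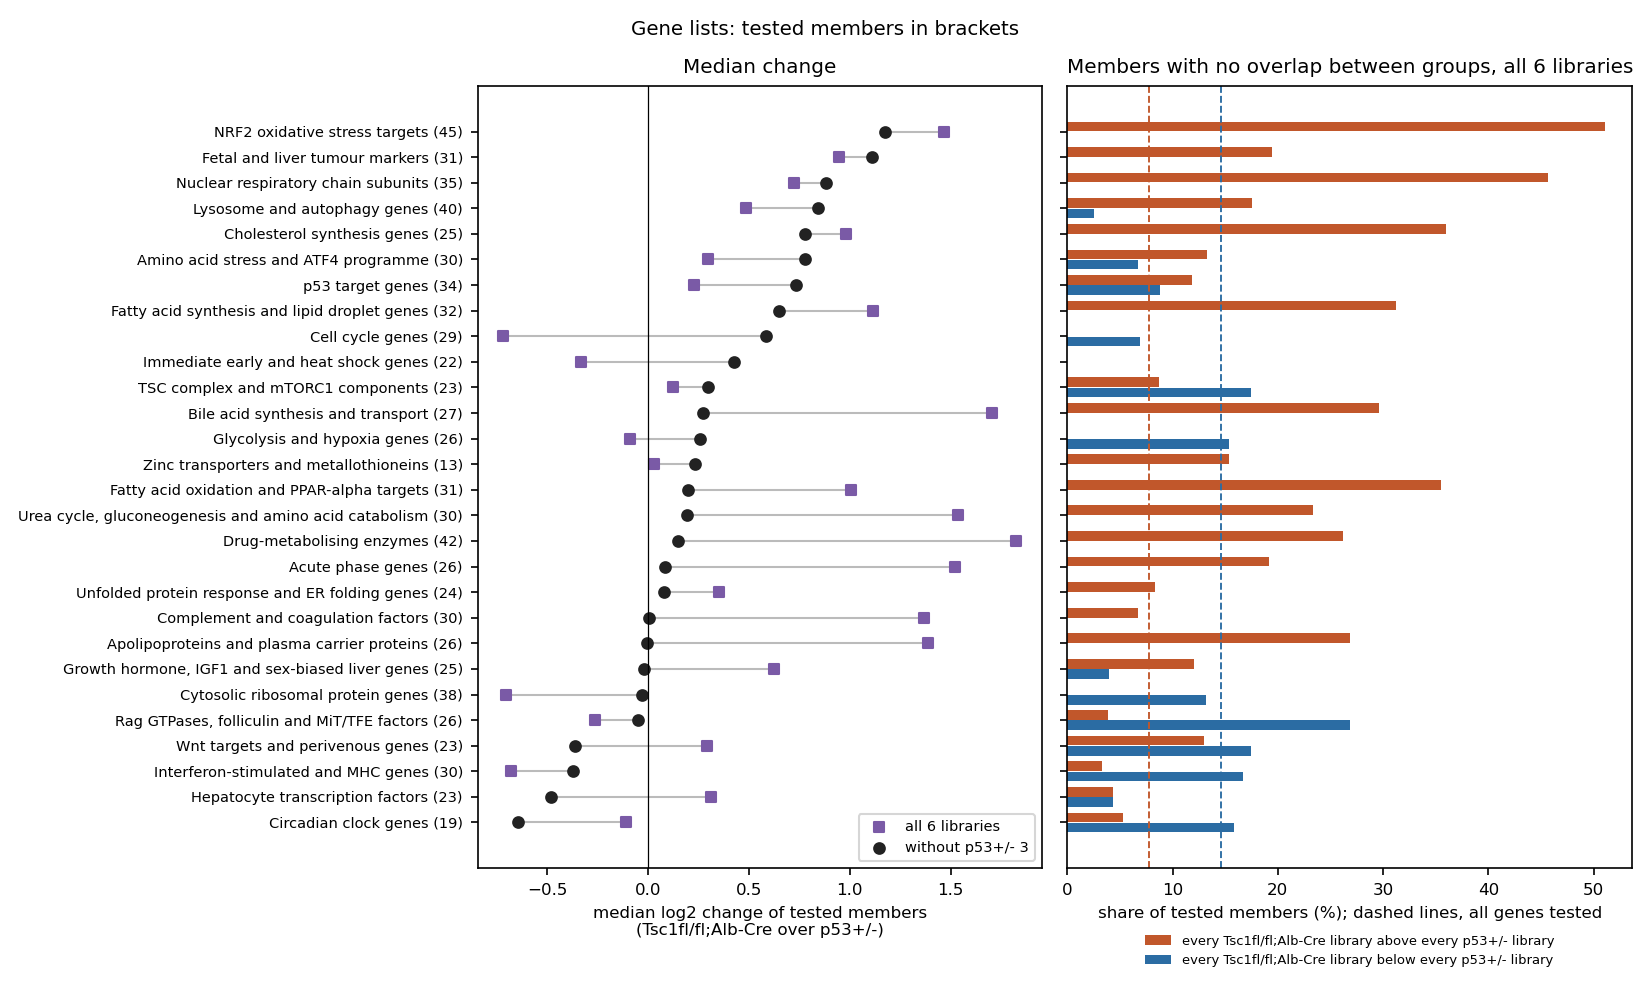
Left, median log2 change (Tsc1fl/fl;Alb-Cre over p53+/-) of the tested members of each gene list with all 6 libraries (squares) and without p53+/- library 3 (circles); right, share (%) of members for which every Tsc1fl/fl;Alb-Cre library was above or below every p53+/- library, with dashed lines at 7.71% and 14.6% for all genes. NRF2 targets (51.1%) and nuclear respiratory chain genes (45.7%) have the largest shares above among the pathway lists, and the medians of hepatocyte functions such as drug metabolism drop toward 0 without p53+/- library 3.

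Genes of hepatocyte functions were high in Tsc1-deleted livers with all 6 libraries, but most of these lists lay near 0 once p53-heterozygous library 3 was left out. The median log2 change of 42 tested drug-metabolising enzymes was 1.83 with all 6 libraries and 0.15 without library 3. For 27 genes of bile acid synthesis and transport it was 1.71 and 0.28, for 30 genes of the urea cycle, gluconeogenesis and amino acid catabolism 1.54 and 0.19, for 26 acute phase genes 1.52 and 0.09, and for 30 complement and coagulation genes 1.37 and 0.01. Hepatocyte markers themselves had medians of 1.75 and 0.18. The exceptions are enzymes that were also high beside the hepatocyte-rich libraries. Cyp2b10, a cytochrome P450 under the receptor CAR, stood at 61.2, 22.7 and 65.2 nuclear TPM in Tsc1-deleted and at 0, 3.49 and 0.47 in p53-heterozygous livers (limma adjusted p = 0.0241 without library 3, 0.115 with all 6). Cyp2f2, a P450 of periportal hepatocytes, stood at 1267, 1166 and 997 nuclear TPM against 425, 259 and 18.8 (limma adjusted p = 0.0309 without library 3). Cyp2c70, which makes muricholic acids in mice, stood at 529, 467 and 484 nuclear TPM against 232, 144 and 6.46 (limma adjusted p = 0.0488 without library 3). Cyp2c54 went the other way there, at 98.2, 267 and 63.4 nuclear TPM against 849, 1168 and 4.18 (limma adjusted p = 0.0323 without library 3, 0.936 with all 6), and its sequence is close to that of other Cyp2c genes.

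In bile acid synthesis, Cyp8b1, the enzyme that steers synthesis toward cholic acid, stood at 284, 227 and 174 nuclear TPM in Tsc1-deleted and at 67.1, 34.5 and 1.82 in p53-heterozygous livers (log2 change 2.19, SE 0.39, limma adjusted p = 0.0266 without library 3, 0.247 with all 6). Cyp7a1, the rate-limiting enzyme, overlapped, at 120, 33.1 and 32.1 nuclear TPM against 36.2, 13.2 and 1.06. Of 31 genes of fatty acid oxidation, Ehhadh, a peroxisomal enzyme under PPAR-alpha, was the only one that rose without library 3 (2.6% of all genes). It stood at 285, 164 and 164 nuclear TPM against 46.4, 55.7 and 6.48 (limma adjusted p = 0.0295 without library 3, 0.216 with all 6). None of the 25 cholesterol synthesis genes passed (limma), but 9 (36.0%) were above and 0 below without overlap (7.71% and 14.6% of all genes), and the median log2 change was 0.98 with all 6 libraries and 0.78 without library 3. Sqle, which epoxidises squalene, stood at 73.8, 45.5 and 83.8 nuclear TPM against 36.9, 18.1 and 30.1. Of 32 genes of fatty acid synthesis and lipid droplets, 10 (31.2%) were above and 0 below (7.71% and 14.6% of all genes), among them the fatty acid synthase Fasn at 116, 87.6 and 76.4 nuclear TPM against 62.5, 20.4 and 22.6, and only Scd2 passed without library 3. The share above was also 35.5% for fatty acid oxidation, 29.6% for bile acid synthesis and transport, 26.9% for apolipoproteins and plasma carriers and 26.2% for drug-metabolising enzymes. It was 23.3% for the urea cycle list, 19.2% for acute phase genes and 6.67% for complement and coagulation. These shares thus do not set lipid synthesis apart. Lipid synthesis is a known output of mTORC1, but neither Sqle nor Fasn passed (limma adjusted p = 0.323 and 0.292 with all 6, 0.114 and 0.144 without library 3).

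Among secreted proteins, Spp2, a phosphoprotein of hepatocytes and bone, stood at 935, 700 and 580 nuclear TPM in Tsc1-deleted and at 145, 132 and 11.9 in p53-heterozygous livers (limma adjusted p = 0.0119 without library 3, 0.212 with all 6). Lbp, the acute phase protein that binds bacterial lipopolysaccharide, stood at 135, 108 and 149 nuclear TPM against 49.8, 37.0 and 12.8 (limma adjusted p = 0.0354 without library 3, 0.212 with all 6). Apoc2 and the thyroxine carrier Serpina7 fell without library 3 (limma adjusted p = 0.0303 and 0.0431), but both overlapped over all 6, and the Apoc2 model overlaps Gm44805. Igf1, the growth hormone effector, also fell without library 3, at 158, 112 and 127 nuclear TPM against 413 and 307, while library 3 held 61.3 (limma adjusted p = 0.0451, and 0.787 with all 6). Of 23 Wnt targets and perivenous genes, Wif1 and Aldh1b1 rose without library 3 and 0 fell (2.6% and 2.62% of all genes). Wif1, a secreted Wnt inhibitor, stood at 5.23, 5.43 and 9.08 nuclear TPM and was listed at 0 in all p53-heterozygous livers (limma adjusted p = 0.0228 without library 3, 0.115 with all 6), where 1 read is worth about 1.06 and 1.51 nuclear TPM in libraries 1 and 2. The stem cell receptor Lgr5 and the Wnt feedback gene Nkd1 lay below without overlap and did not pass.

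Several genes of smooth muscle and stellate cells were below all 3 p53-heterozygous livers in the Tsc1-deleted group. Ecm1, a matrix protein of hepatocytes and stellate cells that holds back TGF-beta activation in mouse liver, stood at 27.0, 32.4 and 31.5 nuclear TPM in Tsc1-deleted and at 193, 165 and 189 in p53-heterozygous livers. The groups were tight and far apart, with a log2 change of -2.55 (SE 0.41) that did not pass with all 6 libraries (limma adjusted p = 0.115) and passed without library 3 (0.00674, range over settings 0.00281 to 0.871). Myl9, the regulatory light chain of smooth muscle myosin, stood at 9.86, 13.9 and 8.70 nuclear TPM against 110, 60.0 and 94.4 (limma adjusted p = 0.115 with all 6, 0.0151 without library 3). Tagln, an actin-binding protein of smooth muscle whose model overlaps Pcsk7, stood at 11.2, 15.4 and 20.5 nuclear TPM against 168, 83.0 and 111 (limma adjusted p = 0.0169 without library 3). Acta2, smooth muscle actin and a mark of activated stellate cells, stood at 10.4, 19.4 and 20.5 nuclear TPM against 155, 71.9 and 341 (limma adjusted p = 0.0259 without library 3). Of 14 muscle markers 8 were tested, and the 3 p53-heterozygous libraries alone can bring a gene past the filter. Counts among the tested members may therefore lean toward lower. Among the 8, 2 (Myh11 and Des) fell without library 3 (2.62% of all genes), and 4 were below without overlap (14.6% of all genes). All 14 summed to 31.4, 19.8 and 18.7 nuclear TPM in Tsc1-deleted livers, against 108.5, 277.9 and 75.4. Of 22 tested stellate cell and fibroblast markers, 9 (40.9%) were below and 0 above without overlap (14.6% and 7.71% of all genes). Without library 3, 4 fell and 1, Timp1, rose (2.62% and 2.6% of all genes). The list's median log2 change was -1.43 with all 6 libraries and -0.06 without library 3. No collagen gene of the list passed, and Des is on both lists. For the values as deposited, 2 muscle and 16 stellate cell markers reached the filter, and their median log2 changes were 0.14 and 0.20, below the 1.25 of all genes.

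Smooth muscle genes share a site for serum response factor, the CArG box, which is found in 1.63% of all promoter windows on either strand. It was found upstream of Myl9 (chr2:156775263-156775352, plus strand), in capitals at 161 bases before the start. That stretch is shown as an example, since Myl9, like Tagln and Acta2, was apart in all 6 libraries. The box was not counted over the muscle or stellate cell lists, so no list share stands beside the 1.63%.
Myl9 promoter: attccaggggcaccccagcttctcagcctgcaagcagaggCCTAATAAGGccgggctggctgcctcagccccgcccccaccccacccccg

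Of 20 lymphocyte markers 16 were tested, and the p53-heterozygous libraries alone can bring a gene past the filter. Among the 16, 5 fell without library 3 (2.62% of all genes) and 10 (62.5%) were below without overlap over all 6 (14.6% of all genes). The summed level was 496, 689 and 1159 nuclear TPM in Tsc1-deleted and 1483, 3121 and 2202 in p53-heterozygous livers. Cd3g, a chain of the T cell receptor complex, stood at 1.17, 1.94 and 2.61 nuclear TPM against 13, 23.3 and 15.4 (limma adjusted p = 0.0273 without library 3, 0.124 with all 6). Lck, the kinase next to that receptor, stood at 1.64, 1.03 and 2.89 nuclear TPM against 14.9, 19.95 and 10.4 (limma adjusted p = 0.0251 without library 3, 0.144 with all 6). Cd2, an adhesion protein of T and NK cells, and Ighm, the heavy chain of IgM, passed in the same way. All 12 neutrophil markers, of which 5 passed the filter, summed to 29.7, 70.3 and 15.25 nuclear TPM against 162, 1163 and 156. S100a8, a calcium-binding protein of neutrophils, stood at 8.52, 14.8 and 3.36 against 43.7, 221 and 45.1 (limma adjusted p = 0.0483 without library 3). 3 platelet genes were picked after their values were seen, with no list tested. The chemokine Ppbp stood at 0, 0.96 and 0 nuclear TPM against 28.4, 45.9 and 2.09 (limma adjusted p = 0.00471 without library 3, 0.212 with all 6). Gp9 and Itga2b of the platelet adhesion receptors passed in the same way. All 5 tested red cell markers, of 12 on the list, fell without library 3 (2.62% of all genes). Library 3 itself lay at the level of the Tsc1-deleted livers, with 121 nuclear TPM of the alpha globin gene Hba-a1 against 12100 and 18530 in libraries 1 and 2. In library 3 lymphocyte and neutrophil markers were above the Tsc1-deleted livers while red cell markers and Ppbp were low. The part of blood left in the tissue was not tested. For the values as deposited, 6 of the lymphocyte markers reached the filter, and their median log2 change was 0.45, below the 1.25 of all genes.

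Markers of the sinusoidal endothelium were lower in sum, at 198, 198 and 237 nuclear TPM in Tsc1-deleted and 363, 401 and 452 in p53-heterozygous livers. Of 16 tested sinusoidal endothelial markers, 2 (Gpr182 and Ehd3) fell and 1 (Flt4) rose without library 3 (2.62% and 2.6% of all genes). Over all 6, 4 were below and 1 above without overlap (14.6% and 7.71% of all genes). Flt4, the receptor of lymphatic growth factors, stood at 19.7, 17.7 and 35.3 nuclear TPM against 5.21, 5.84 and 11 (limma adjusted p = 0.0493 without library 3, 0.242 with all 6). Vsig4, a complement receptor of Kupffer cells, was the only macrophage marker that passed without library 3, at 21.4, 28.6 and 17.9 nuclear TPM against 103 and 81.2, and it was listed at 0 in library 3. Among 30 interferon-stimulated and MHC genes, Usp18, which removes ISG15 from proteins, rose, at 29.1, 28.3 and 53.8 nuclear TPM against 6.38, 10.6 and 22.7 (limma adjusted p = 0.0466 without library 3, 0.303 with all 6). Irf7, a transcription factor of the interferon response, fell, at 13.2, 24.0 and 25.6 nuclear TPM against 79.2, 67.0 and 50.4 (limma adjusted p = 0.0431 without library 3, 0.212 with all 6). Of all genes 2.6% rose and 2.62% fell without library 3.

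**Figure D5:**
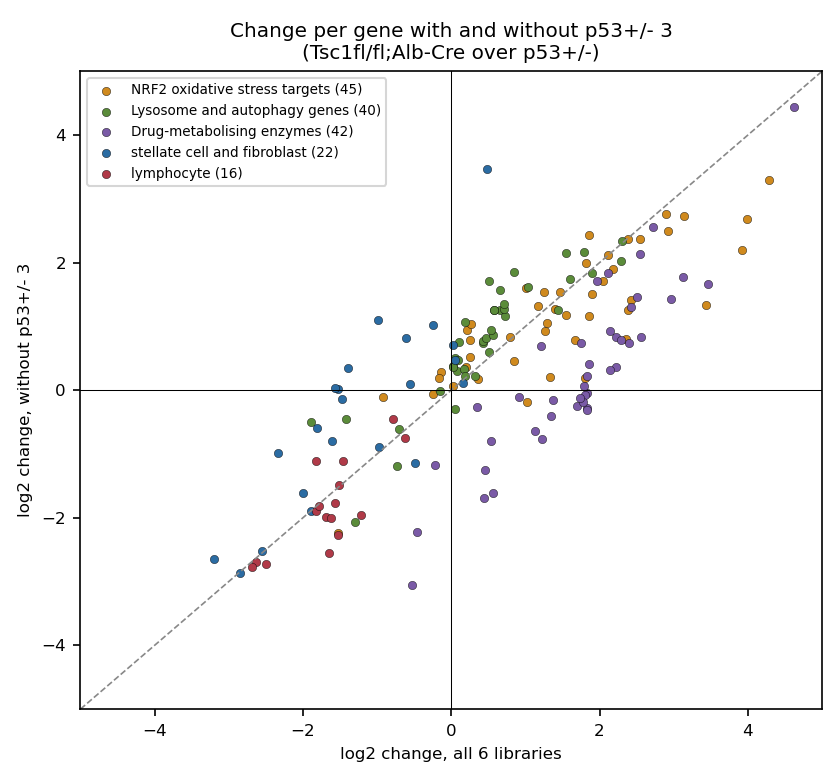
Log2 change (Tsc1fl/fl;Alb-Cre over p53+/-) per gene with all 6 libraries (x) and without p53+/- library 3 (y) for 5 lists, with the dashed line at equal values. The 2 comparisons share 5 libraries; the 42 drug-metabolising enzymes lie mostly below the line (medians 1.83 and 0.15), while NRF2 targets (1.47 and 1.18) and lymphocyte markers (-1.64 and -1.93) stay near it.

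The remaining lists held few calls, beside 2.6% of all genes higher and 2.62% lower without library 3. Of 26 glycolysis and hypoxia genes, Pgam1 and Ndrg1 rose without library 3, and both overlapped over all 6. Of 22 immediate early and heat shock genes, the small heat shock protein Hspb1 rose without library 3 (limma adjusted p = 0.0151, and 0.527 with all 6), with 507 nuclear TPM in library 3, above every Tsc1-deleted liver. None of the 13 zinc transporter and metallothionein genes, 23 hepatocyte transcription factors, 19 circadian clock genes or 38 cytosolic ribosomal protein genes passed with or without library 3 (limma). Ribosomal protein genes summed to 17820, 21490 and 24470 nuclear TPM in Tsc1-deleted livers and to 25820, 21240 and 87020 in p53-heterozygous livers, and their median log2 change was -0.70 with all 6 libraries, -0.03 without library 3 and 1.60 for the values as deposited.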

How the data were processed

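Total RNA was extracted with TRIzol, depleted of ribosomal RNA and read as single reads on a HiSeq, per the labels' protocols; another label field gives polyA RNA. Reads were processed by the authors with cutadapt, STAR and StringTie on mm9, per the submitters' processing notes, with versions and settings not given in the sources used here. The deposited values are FPKM per Ensembl gene; the unit is not named in the files and was taken from the values. Of 52550 IDs, 52403 matched GENCODE M21, which was used for names and classes only because it is built on GRCm38. Each library was rescaled so that 21806 nuclear protein-coding genes summed to 1000000.

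A gene entered the test if 3 or more of the 6 libraries had a value of 1 or more, and log2(value + 1) was fitted with limma 3.58.1 in R 4.3.3 (trend and robust steps, Benjamini-Hochberg adjustment, threshold 0.05), after a check on simulated data. Since separate animals are not stated, p-values measure the spread between libraries, which may be technical. Read numbers were estimated from the smallest steps in the FPKM values, and the value of 1 read covers counting error only. A gene was called without overlap where every library of 1 genotype lay above every library of the other. The comparison without p53-heterozygous library 3 repeats the test on 5 libraries, and its own variants were added after seeing the data. Genes were named as the largest changes that passed without overlap at a mean of at least 5, as members of gene lists, or, where stated, after their values were seen. The members and lists were chosen with earlier results of these data known. Alternatives were other pseudocounts, filters, scalings and variance models, a replicate block and libraries left out.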

Additional observations from a re-analysis of the deposited data

How the results depend on the processing

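With all 6 libraries the counts higher and lower in Tsc1-deleted livers were 6 and 2. They were 260 and 2 for the values as deposited, 12 and 1 with median-ratio rescaling, 7 and 1 with quantile normalization, 4 and 1 with a pseudocount of 5, 4 and 0 with no filter, 5 and 1 over nuclear protein-coding genes only, 836 and 1261 with array weights (which gave p53-heterozygous library 3 a weight of 0.119), and 1223 and 2733 without p53-heterozygous libraries 1 and 2, where the lone library is assumed to vary like the others. Leaving out 1 library at a time gave 3 to 387 higher and 0 to 390 lower, with both upper ends from leaving out p53-heterozygous library 3. Mup-ps19, Gm44805 and Defb1 passed under every alternative, and Bex2, Clec2h, Wfdc12, Eno1b and Gm12940 did not. Without library 3 the counts of 387 and 390 became 9717 and 74 for the values as deposited, 613 and 470 with median-ratio rescaling, and 279 and 205 over nuclear protein-coding genes only, and leaving out a further library gave 24 to 665 higher and 59 to 497 lower. The median log2 change of all genes was 1.25 as deposited and -0.74 without p53-heterozygous libraries 1 and 2. Of 1379 alternatives for 78 named genes, 1122 kept direction and side of the threshold, 42 lost and 196 gained the call, and 19 reversed. As deposited the log2 change was 1.08 for Apoc2, 0.45 for Clk4, 0.44 for Pnn, 0.44 for Rbm39, 0.44 for Srsf11, 0.63 for Rps6kb2 and 1.63 for Cyp2c54. Without p53-heterozygous libraries 1 and 2 it was 1.32 for Apoc2, 4.53 for Cyp2c54, -0.45 for Eif4ebp1, -0.60 for Golm1, -1.29 for Scd2 and -1.02 for Trp53. Leaving out 1 library gave Cyp2c54 values from -3.06 to 0.85 and Trp53 values from -0.10 to 0.83, and mt-Co1 had 0.19 after quantile normalization; the cause was not tested. With the replicate number as a block 3 genes were higher and 0 lower. Same-numbered libraries deviated together with correlations of 0.131, 0.076 and 0.327, and not every library correlated best with its own number. The highest value of any pair, 0.327, joined the libraries numbered 3. These deviations are taken from means of 3 libraries, so they cannot decide whether the numbers pair the samples. Depth limits low genes in p53-heterozygous libraries 1 and 2.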
